A study of Mus musculus with 6 samples.

Results

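The genes described here encode laminin chains and the proteins that tie laminin into the basement membrane: the laminin chains Lama2, Lama4, Lama5, Lamb1, Lamb2 and Lamc1, the nidogens Nid1 and Nid2, perlecan (Hspg2) and agrin (Agrn). They were taken by gene symbol from the annotation of the array, keeping probe sets with exactly 1 symbol. This gave 10 genes of 18193 named genes, and 21 probe sets of 45101. Of the 10 genes, 9 passed the filter on dim signals and 1, Lama4, lay below it on both coatings.

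RNA was measured in myoblasts, the precursors of muscle fibres, which came from the hindlimbs of male C57BL/6JRj mice aged 9 to 15 weeks. The cells were grown for 72 hours on collagen I (3 samples) or on fibronectin (3 samples), in Ham's F-10 with 20% serum, 2.5 ng/ml basic fibroblast growth factor and 1% antibiotics, and were detached briefly with trypsin before extraction. No allele or agent other than the coating separated the groups. The labels do not say whether samples came from separate mice or cultures, so the p-values rest on a spread between samples that may be only technical.

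A laminin is a heterotrimer of an alpha, a beta and a gamma chain, which assembles inside the cell and polymerises on its surface. Nidogens bind the gamma 1 chain and link the laminin network to collagen IV, and the heparan sulfate proteoglycans perlecan and agrin attach to both the network and the cell. In skeletal muscle, laminin containing the alpha 2 chain coats each fibre and is held through dystroglycan and integrin alpha 7 beta 1. Loss of the alpha 2 chain causes a congenital muscular dystrophy.

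Signals are log2 values normalised by the authors with RMA, and a gene is represented by its brightest probe set. The coatings were compared with limma, and a gene was called at a Benjamini-Hochberg adjusted p under 0.05 over 10928 tested genes. Of the 9 tested laminin and linker genes, Nid2 rose on fibronectin, Lama5 fell and 7 were not called. Over all tested genes 40.1% were called, 19.9% higher and 20.3% lower. The median size of the log2 change was 0.13 over the 9 genes and 0.14 over all tested genes, and the signed medians were 0.04 and 0.00. When samples were centred on their medians, 2971 genes of the array were higher and 1647 lower, in place of 2173 and 2214. The same scaling left Nid2 called, ended the call of Lama5 (adjusted p = 0.0564) and added Hspg2 as higher (adjusted p = 0.0286).

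**Figure D1:**
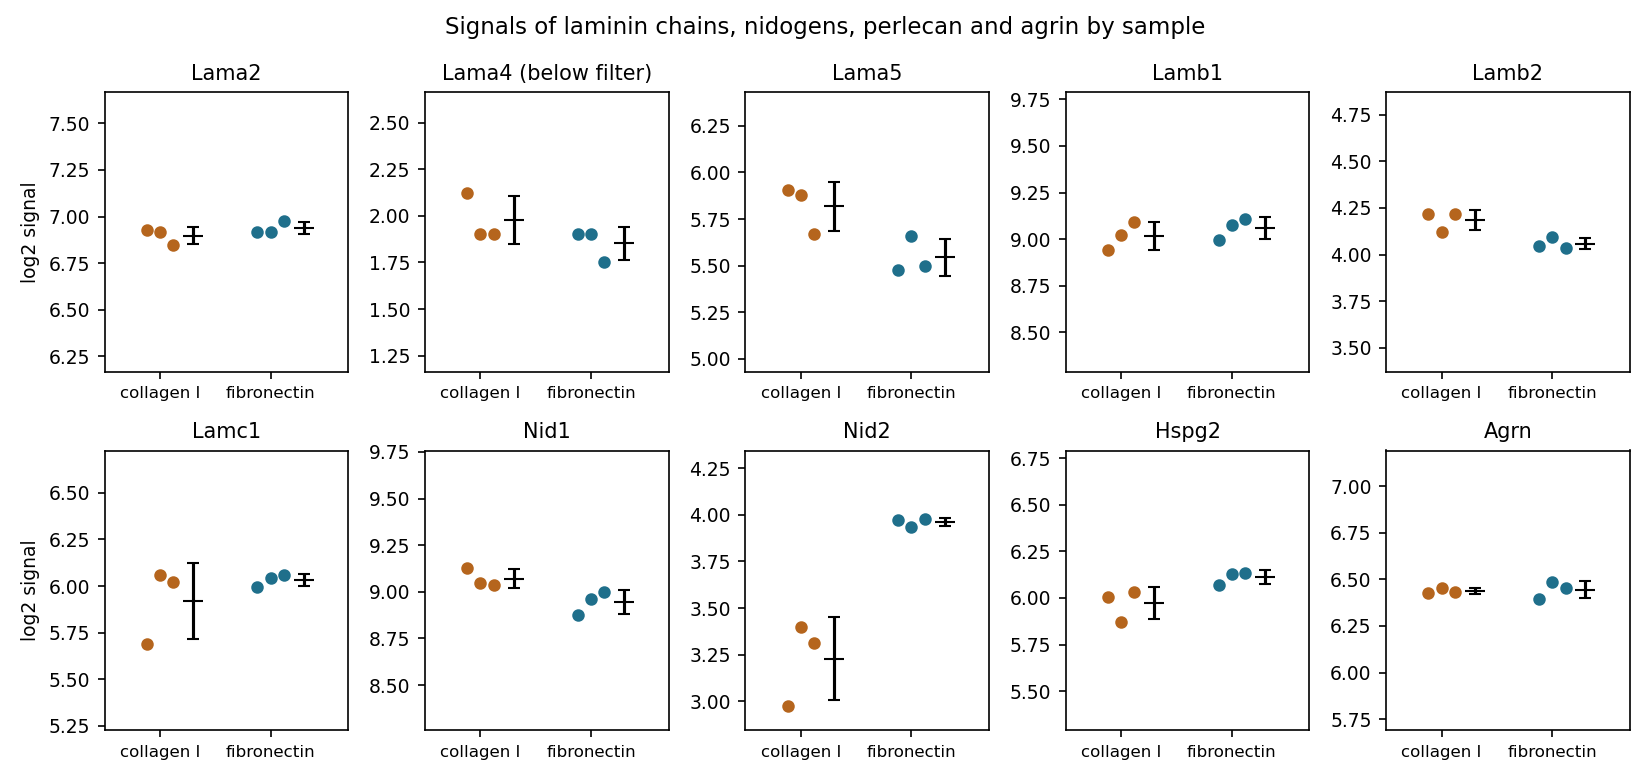
Log2 signal of each gene's brightest probe set in the 3 collagen I samples (brown) and the 3 fibronectin samples (blue), with the mean ± SD in black beside the points; every panel spans 1.5 log2 units. The fibronectin samples of Nid2 lie between 3.94 and 3.98, above all collagen I samples (2.98 to 3.40), and the groups of Lama2, Lamb1, Lamc1 and Agrn overlap.

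For Lama5 and Nid1, the genes with a called probe set that had an entry in the promoter table, part of the promoter is shown so that the sequence can be set beside the values below. Each line runs from 250 to 51 bases before the annotated start, 5′ to 3′ on the gene's strand, from RefSeq on GRCm38.p6. Capitals mark letters matching a motif on either strand: the GC box GGGCGG, the E box CANNTG, the AP-1 site TGANTCA, the TEAD site GGAATG or the CArG box.
Lama5: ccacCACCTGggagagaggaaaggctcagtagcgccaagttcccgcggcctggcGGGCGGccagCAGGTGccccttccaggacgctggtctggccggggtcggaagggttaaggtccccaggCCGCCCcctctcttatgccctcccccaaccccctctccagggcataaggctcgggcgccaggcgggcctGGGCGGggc
Nid1: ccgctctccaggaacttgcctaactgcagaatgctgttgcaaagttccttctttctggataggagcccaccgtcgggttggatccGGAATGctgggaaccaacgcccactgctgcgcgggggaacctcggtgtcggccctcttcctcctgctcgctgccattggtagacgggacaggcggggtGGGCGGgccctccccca

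The Lama5 window lies at chr2:180225910-180226109 on the minus strand and overlaps the annotated long noncoding RNA gene Gm52542. It holds 3 GC boxes and 2 E boxes. The Nid1 window lies at chr13:13437352-13437551 on the plus strand, overlaps the annotated pseudogene Gm7426 and holds 1 GC box and 1 TEAD site. Of 32851 windows of the same length and position over all genes, 24.6% held a GC box, 59.0% an E box, 5.6% an AP-1 site, 10.7% a TEAD site and 1.2% a CArG box. Of the 10 genes 7 had a window in the table, and none of their 8 windows held an AP-1 site or a CArG box. For Agrn, 1 window held 10 GC boxes at a GC content of 84.0%. The other Agrn window, which overlaps the annotated Agrn gene, held 0 at 58.0%. The Hspg2 window held 5 GC boxes at 70.0%, and the Lamb2 and Lama2 windows held 0 at 44.5% and 43.0%. The median GC content over all windows was 51.5%. A match describes letters in the window and not binding.

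Among the alpha chains, which carry the globular domains that bind cell receptors, the alpha 2 and alpha 5 chains were measured above the filter. Lama2 (Entrez gene 16773), the chain of the laminin around muscle fibres, had signals of 6.93, 6.92 and 6.85 on collagen I and 6.92, 6.92 and 6.98 on fibronectin. The groups overlapped, and the log2 change was 0.04 (95% interval -0.07 to 0.15, limma adjusted p = 0.512). Lama5 (Entrez gene 16776), a chain found in many adult basement membranes and at the nerve-muscle synapse, had signals of 5.91, 5.88 and 5.67 on collagen I and 5.48, 5.66 and 5.50 on fibronectin. Every collagen I sample lay above every fibronectin sample, but by a gap of only 0.01. Lama5 fell by 0.27 on the log2 scale, or 1.21-fold (SE 0.08, limma adjusted p = 0.0254).

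A second Lama5 probe set, 1427010_s_at, gave a wider gap. Its signals were 5.51, 5.49 and 5.31 on collagen I and 5.15, 5.13 and 5.16 on fibronectin, and its log2 change was -0.29 (SE 0.07, adjusted p = 0.0481 over all probe sets, of which 10.2% were called). Over all probe sets the first one did not pass (adjusted p = 0.102). The third, 1459614_at, lay near the floor of the array, at 0.92 ± 0.12 and 0.83 ± 0.13 (SD, n = 3). Leaving out any single sample but collagen replicate 3 ended the call of 1427010_s_at (adjusted p 0.114 to 0.146). The call of the Lama5 gene was lost without collagen replicate 1 (adjusted p = 0.0747), collagen replicate 2 (0.0831), fibronectin replicate 1 (0.0802) or fibronectin replicate 3 (0.0799), and the log2 change then lay between -0.25 and -0.23. It was also lost without the brightness filter (0.0675).

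Lama4, the alpha chain typical of vascular basement membranes, had signals of 2.12, 1.90 and 1.90 on collagen I and 1.90, 1.90 and 1.75 on fibronectin, all below the filter of 2.34. Its second probe set was lower still, between 0.25 and 0.72. It was not tested.

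The other alpha chains of the laminin family were below the filter too. Lama1, the chain of early embryonic laminin, had 0.90 ± 0.04 on collagen I and 1.00 ± 0.40 on fibronectin. Lama3, the epithelial chain, had 1.18 ± 0.12 and 1.10 ± 0.18. Lama2 and Lama5 were thus the 2 alpha chains with a probe set above the filter.

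The beta chains pair with an alpha and the gamma chain in each trimer. Lamb1 (Entrez gene 16777), the widely used beta chain, had signals of 8.94, 9.02 and 9.09 on collagen I and 8.99, 9.08 and 9.11 on fibronectin. The groups overlapped, with a log2 change of 0.04 (95% interval -0.09 to 0.17, limma adjusted p = 0.588). The other Lamb1 probe sets above the filter had log2 changes of 0.03 and 0.10, and the dim one had -0.03.

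Lamb2 (Entrez gene 16779), the beta chain concentrated at the nerve-muscle synapse and in the kidney filter, had signals of 4.22, 4.12 and 4.22 on collagen I and 4.05, 4.09 and 4.04 on fibronectin. The groups did not overlap, with a gap of 0.03. Its log2 change of -0.13 (SE 0.05) did not pass (limma adjusted p = 0.0667), and with samples centred it was -0.07. Lamb3, a beta chain of epithelial laminin, was above the filter at 5.71 ± 0.10 and 5.72 ± 0.03 (SD, n = 3) and had a log2 change of 0.00 (limma adjusted p = 0.974).

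Lamc1 (Entrez gene 226519), the gamma chain of most laminins and the one that nidogens bind, had signals of 5.69, 6.06 and 6.02 on collagen I and 6.00, 6.04 and 6.06 on fibronectin. Collagen replicate 1 stood apart from the other 5 samples. The log2 change was 0.11 (95% interval -0.11 to 0.33, limma adjusted p = 0.385), and without that sample it was -0.01 (adjusted p = 0.912). A dim second probe set gave 1.69, 1.57 and 1.62 on collagen I and 1.92, 1.79 and 1.77 on fibronectin, and the mean of the pair of probe sets passed at 0.15 (adjusted p = 0.0391). Lamc3, another gamma chain, was below the filter at 1.42 ± 0.29 and 1.10 ± 0.11 (SD, n = 3).

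The nidogens, which have overlapping functions as bridges between laminin and collagen IV, had changes of opposite sign. Nid2 (Entrez gene 18074) had signals of 2.98, 3.40 and 3.31 on collagen I and 3.97, 3.94 and 3.98 on fibronectin. The groups were separated by 0.54, and the fibronectin samples lay closer together (SD 0.02) than the collagen I samples (SD 0.22). Nid2 rose 1.66-fold, a log2 change of 0.73 (SE 0.10, 95% interval 0.50 to 0.97, limma adjusted p = 0.00101).

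Among all tested genes 3.06% had a larger size of change than Nid2. It stayed called without each sample in turn, at log2 changes between 0.61 and 0.82, the lowest being without collagen replicate 1. The value rests on 1 probe set, 1423516_a_at, of a type that detects several transcripts of 1 gene. RMA compresses changes at signals as low as those on collagen I, and Nid2 drops out of the test if the filter is set at the 75th percentile of all signals.

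Nid1 (Entrez gene 18073) had signals of 9.13, 9.05 and 9.04 on collagen I and 8.87, 8.96 and 9.00 on fibronectin. The groups did not overlap, with a gap of 0.04, and the log2 change of -0.13 (SE 0.05) did not pass (limma adjusted p = 0.0895). Its 3 probe sets had changes of 1 sign and unequal size. Probe set 1448469_at had signals of 6.00, 5.98 and 6.06 on collagen I and 5.28, 5.34 and 5.80 on fibronectin. Fibronectin replicate 3 lay closer to the collagen I samples than the other 2 fibronectin samples did.

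That probe set fell by 0.54 on the log2 scale (SE 0.13, adjusted p = 0.0459 over all probe sets), and by 0.71 without fibronectin replicate 3 (adjusted p = 0.00769). Without any other single sample it did not pass, at adjusted p between 0.114 and 0.133. The dimmer 1441519_at had a log2 change of -0.18 (adjusted p = 0.412), with overlapping groups. The mean of the 3 probe sets passed at -0.28 (adjusted p = 0.0228).

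**Figure D2:**
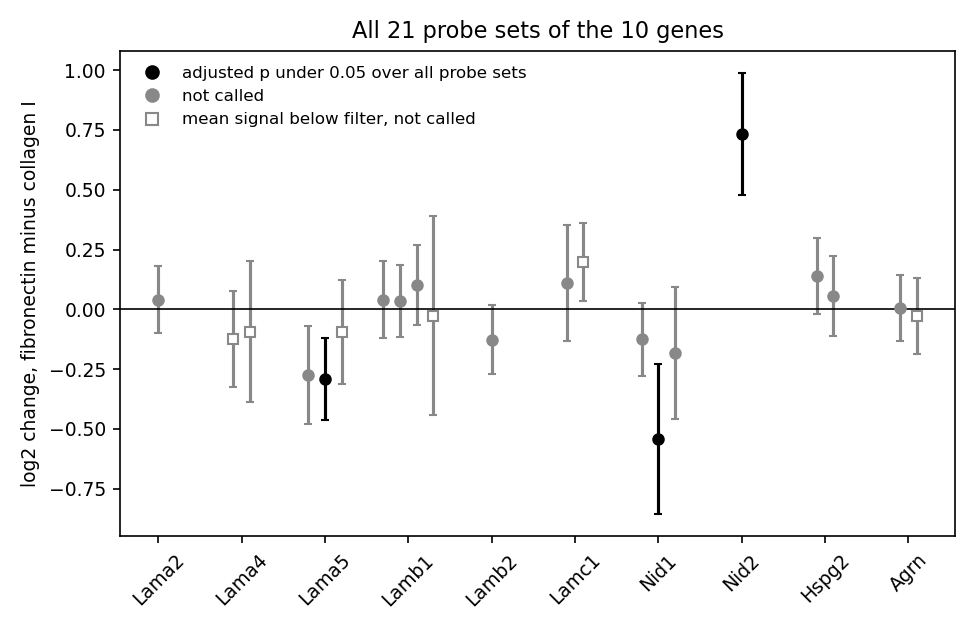
Log2 change, fibronectin minus collagen I, of all 21 probe sets with 95% intervals, ordered from brightest to dimmest within each gene; black marks probe sets called over all probe sets and open squares those below the filter. Nid2 (0.73) is the only one called higher, and a Lama5 probe set (-0.29) and a Nid1 probe set (-0.54) are called lower.

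The proteoglycans came next. Hspg2 (Entrez gene 15530) encodes perlecan, which binds growth factors and dystroglycan and anchors acetylcholinesterase at the synapse. Its signals were 6.01, 5.87 and 6.03 on collagen I and 6.07, 6.13 and 6.14 on fibronectin. The groups did not overlap, with a gap of 0.03. The log2 change of 0.14 (SE 0.06) did not pass (limma adjusted p = 0.0807). A second probe set had 5.82, 5.72 and 5.63 against 5.81, 5.72 and 5.81, which overlap, and a log2 change of 0.06.

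Agrn (Entrez gene 11603) encodes agrin, which in its nerve form clusters acetylcholine receptors through Lrp4 and Musk and in its muscle form binds dystroglycan. Its signals were 6.43, 6.45 and 6.43 on collagen I and 6.39, 6.48 and 6.45 on fibronectin. The groups overlapped, and the log2 change was 0.01 (95% interval -0.10 to 0.11, limma adjusted p = 0.92). Its second probe set lay near the floor, between 0.85 and 1.02 in all samples.

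**Figure D3:**
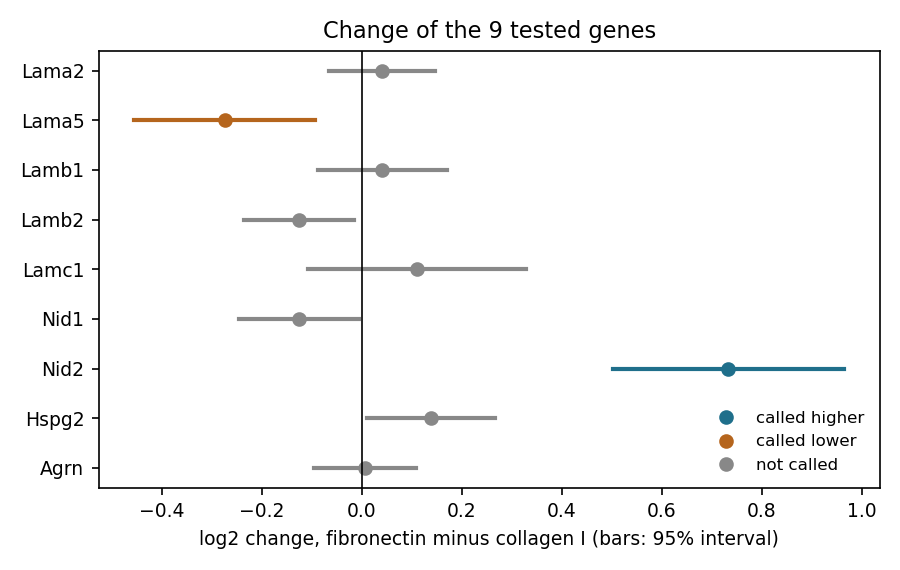
Log2 change of the 9 tested genes, fibronectin minus collagen I, with limma's 95% interval as bars; the vertical line marks no change. Nid2 lies at 0.73 and Lama5 at -0.27, and the 7 genes not called lie between -0.13 and 0.14.

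The 95% intervals of the 7 genes not called lay between -0.25 and 0.33, the upper end being that of Lamc1. At a change of at least 1.5-fold, which with the adjusted p left 5.23% of all tested genes, Nid2 alone of the 9 was called. Samples of the coatings did not overlap in 5 of the 9 genes, 2 higher and 3 lower, against 53.3% of all tested genes (27.4% higher, 25.9% lower), so this share is near the background. A change of at most 0.15 on the log2 scale was found in 7 of the 9 genes and in 53.4% of all tested genes. These 7 were the genes not called, and the limit, which was not planned, lies just above their largest change (0.14). The median sizes of change, 0.13 and 0.14, were alike.

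Whether genes of one class changed unequally was asked of 6 pairs, using the log2 difference between the pair in each sample. Only the shift of this difference between coatings was read, since levels of different probe sets are not comparable. With 3 samples against 3, a two-sided exact permutation test cannot give a p below 0.1, which becomes 0.12 after adjustment over the 6 pairs here. The difference Nid2 minus Nid1 was -6.15, -5.65 and -5.73 on collagen I and -4.90, -5.03 and -5.02 on fibronectin. It shifted by 0.86 toward Nid2, or 1.81-fold (exact p = 0.1, adjusted 0.12), and the groups did not overlap.

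The difference Lama5 minus Lama2 shifted by -0.31, from -1.08 ± 0.09 to -1.39 ± 0.12 (SD, n = 3; exact p = 0.1, adjusted 0.12). Lamb2 minus Lamb1 shifted by -0.17 and Agrn minus Hspg2 by -0.13, each at the same exact p of 0.1 and without overlap. Lama5 minus Lama4 shifted by -0.15 (exact p = 0.1), and Lama4 minus Lama2 by -0.17 with overlapping groups (exact p = 0.3). The pairs with Lama4 rest on signals below the filter. Non-overlap was not counted over pairs of other genes, and single genes did not overlap in 53.3% of all tested genes. The lack of overlap in a pair therefore has no background to be read against. With probe sets averaged the groups of Agrn minus Hspg2 and of Lama5 minus Lama4 overlapped (exact p = 0.3 each), and with plain probe sets preferred Agrn minus Hspg2 shifted by -0.05 (exact p = 0.7).

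**Figure D4:**
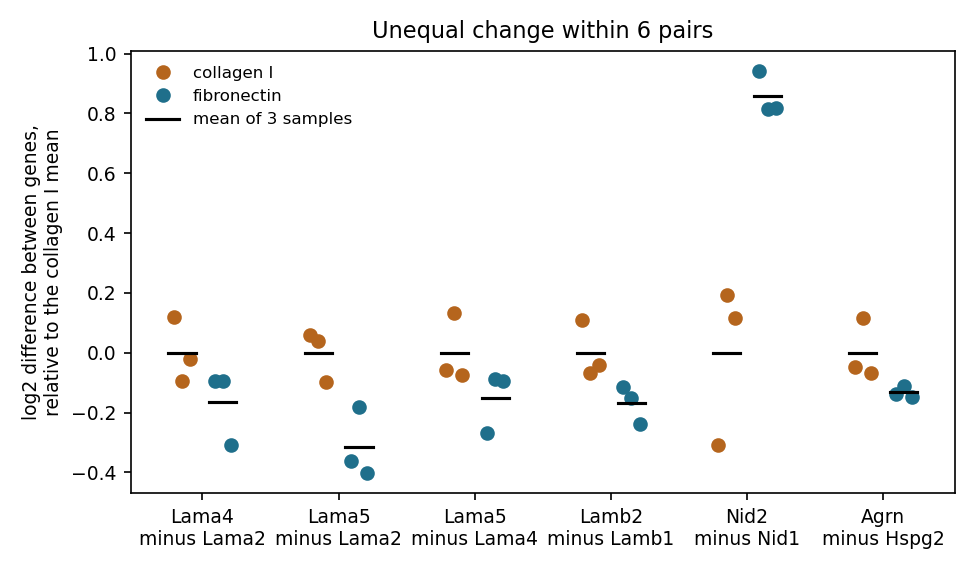
Log2 difference between the genes of each pair in every sample, relative to the collagen I mean of that pair; black lines are means of 3 samples. The fibronectin samples of Nid2 minus Nid1 lie around 0.86, and the shifts of the other pairs lie between -0.31 and -0.13.

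Receptors and partners of these proteins were taken from lists chosen by role, with earlier results of these data known. The counts of each list stand beside 40.1% called over all tested genes, 19.9% higher and 20.3% lower. Of 15 tested laminin receptor genes 5 were higher and 3 lower on fibronectin, with a median log2 change of 0.04. Itga6 and Itga3, integrin subunits that bind laminin, rose by 0.44 and 0.29 on the log2 scale (limma adjusted p = 0.000552 and 0.00346). Averaging the probe sets of Itga3 ended its call (0.16, adjusted p = 0.082). Itga7 and Itgb1, the main laminin integrin of muscle, had changes of -0.03 and 0.01.

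Dmd, the dystrophin that ties the dystroglycan complex to actin, fell by 0.78, and Sgca, a sarcoglycan of that complex, fell by 0.45 (limma adjusted p = 0.000142 and 0.00176). Dag1, which encodes dystroglycan itself and was named after its value was seen, fell by 0.25 (adjusted p = 0.00481). Other partners of the complex went the other way or were not called: the sarcoglycan Sgce rose by 0.21 and the syntrophin Sntb2 by 0.18 (adjusted p = 0.00516 and 0.0259), and Sgcb and Utrn had changes of -0.04 and 0.04. The calls of Sgce and Sntb2 ended with probe sets averaged (0.13 and 0.914). With probe sets averaged the list had 2 of 14 genes higher and 2 lower, so not all of Dmd, Sgca and Dag1 were then called. Dystroglycan binds laminin, perlecan and agrin only when it carries a particular sugar chain, and of 13 tested enzymes of that chain 2 were higher and 3 lower. B4gat1 and Rxylt1, which build the chain, rose by 0.29 and 0.32, and Dpm2 and Dolk, which supply its mannose donor, fell by 0.19 and 0.20. With samples centred 0 enzymes were called lower and 2 higher, and with probe sets averaged 5 were lower and 2 higher.

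Genes of the agrin receptor pathway fell in 8 of 14 cases and rose in 0, where 20.3% of all tested genes fell and 19.9% rose. The median log2 change was -0.30 in the pathway and 0.00 over all tested genes. Musk, the receptor kinase that agrin activates, went from 6.17 ± 0.04 to 4.96 ± 0.06 (SD, n = 3), a 2.32-fold fall (limma adjusted p = 8.82e-06). Dok7, its activator inside the cell, fell 1.78-fold, Chrng, the embryonic acetylcholine receptor subunit, fell 1.75-fold, and Lrp4, which binds agrin directly, fell 1.32-fold. Agrn itself was not called, as given above. Musk and Chrna1, a receptor subunit that fell by 0.31, are also on the list of myoblast markers. There Myog, a factor of muscle differentiation, went from 4.81 ± 0.18 to 3.98 ± 0.20 (SD, n = 3; limma adjusted p = 0.00131), and Des, the muscle intermediate filament protein, fell by 0.23 (adjusted p = 0.0193, and 0.0684 with samples centred). Their part in the fall of the pathway was not tested. With samples centred 1 gene of the list was called higher and 8 lower.

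Among collagens of or next to the basement membrane 3 of 8 tested genes were higher and 2 lower. Col4a1 and Col4a2, the chains of the collagen IV network that nidogens link to laminin, rose 1.58-fold each, Col4a1 from 7.55 ± 0.10 to 8.21 ± 0.05 and Col4a2 from 6.69 ± 0.04 to 7.36 ± 0.04 (SD, n = 3; limma adjusted p = 0.00016 and 5.3e-05). Col7a1, of anchoring fibrils, rose by 0.29 and Col6a1 fell by 0.29. Of the other collagen IV chains, Col4a5 had a log2 change of -0.24 that did not pass (adjusted p = 0.075), and Col4a3, Col4a4 and Col4a6 lay below the filter.

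Other basement membrane components rose in 5 of 9 cases and fell in 2. Fbln1, which binds nidogen and laminin, rose 1.59-fold, Sparc, a collagen IV binding protein, rose 1.4-fold, and Ntn4, a laminin-related netrin that can disrupt laminin networks, rose 1.33-fold. Smoc2, a relative of Sparc, fell 2.18-fold. The limma adjusted p of each of these 4 genes was between 7.2e-05 and 0.000396. With samples centred 1 gene of the list was lower in place of 2.

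Perlecan and agrin carry heparan sulfate, and 3 of 17 tested genes of its synthesis and editing were higher and 4 lower, a share near the 40.1% called over all tested genes. Hs6st2, a sulfotransferase, rose 1.77-fold, Sulf2, which removes sulfate outside the cell, rose 1.31-fold, and the epimerase Glce rose 1.28-fold. Ext1, a polymerase of the chain, fell 1.22-fold. Sulf1, an enzyme of the same kind as Sulf2, fell 1.33-fold (limma adjusted p = 0.0035), a call that ended with probe sets averaged (0.0805). With probe sets averaged 1 gene was called lower and 3 higher, and with samples centred 5 were higher and 4 lower.

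Of 9 tested proteases that can cut basement membrane proteins 2 were higher and 4 lower. Mmp13 went from 3.72 ± 0.24 to 1.64 ± 0.12, where the fibronectin signal is below the filter. Adamts4 fell 1.45-fold, Mmp14 fell 1.23-fold, and Ctsl fell 1.24-fold, a call that ended when its probe sets were averaged (-0.15, adjusted p = 0.105).

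**Figure D5:**
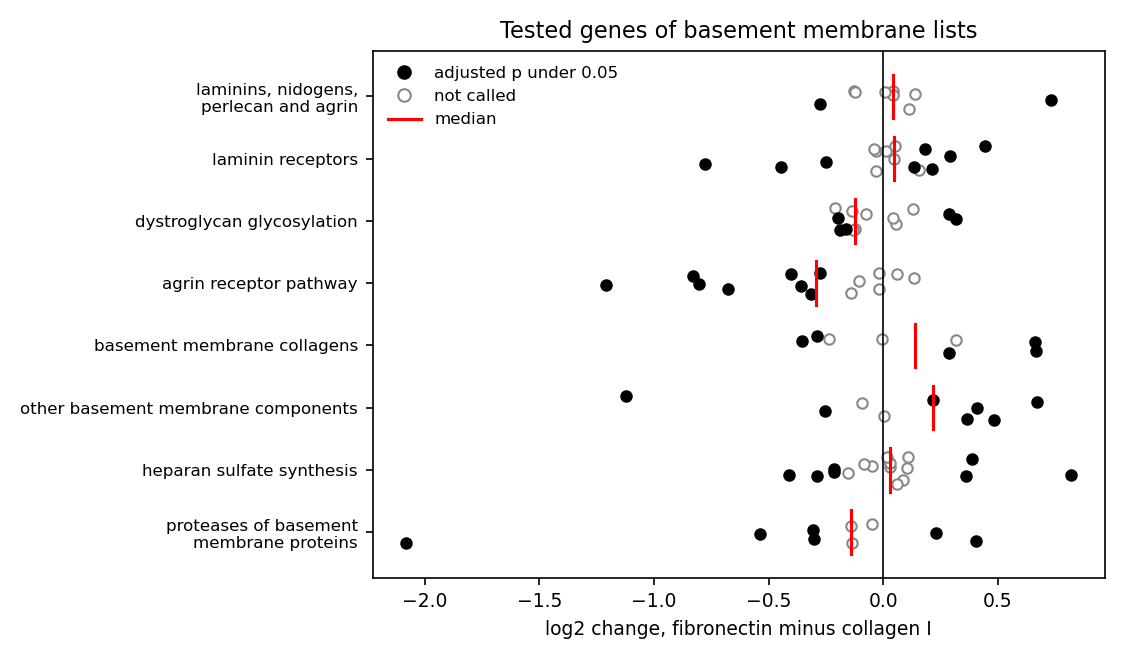
Log2 change of each tested gene (fibronectin minus collagen I) in the laminin and linker group and in 7 lists. The lists were chosen by role, with earlier results of these data known. Filled points passed an adjusted p of 0.05, open points did not, and red lines are medians. The agrin receptor pathway has the lowest median (-0.30), and the laminin and linker group sits around 0.04 with Nid2 and Lama5 at its ends.

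The labelled cell type was checked against markers. Of 15 myoblast markers 14 were above the filter, among them Pax7 (8.89 and 8.77 on collagen I and fibronectin) and Myf5 (8.41 and 8.49), and 4 were called higher and 5 lower on fibronectin. Over all tested genes 19.9% were higher and 20.3% lower. Those higher were Cd34, Vcam1, Cdh15 and Met, by 0.58, 0.31, 0.24 and 0.15 on the log2 scale. Those lower were Musk, Myog, Chrna1, Des and Ncam1, and the calls of Des and Ncam1 ended with samples centred. The signals of Cd34 were 2.16, 2.18 and 2.27 on collagen I, all below the filter, and 2.54, 3.12 and 2.69 on fibronectin. Cd34 was tested because its mean over all samples, 2.49, reached the filter, so the size of its rise rests on dim signals. Laminins and nidogens are also made by vessel, mural, nerve sheath and connective tissue cells. Below the filter were 11 of 12 endothelial, 13 of 15 fibroblast, 5 of 10 pericyte and smooth muscle, 4 of 8 Schwann cell and 9 of 12 macrophage markers. Bright exceptions included the fibroblast markers Col3a1 (9.33 and 9.54 on collagen I and fibronectin) and Smoc2 (7.77 and 6.64). Others were Acta2 (9.84 and 10.06), Rgs5 (9.07 and 7.84) and the Schwann cell marker Pmp22 (6.09 and 6.22). Col3a1 and Acta2 were called higher, calls that ended with probe sets averaged (limma adjusted p = 0.066 and 0.334). Smoc2 and Rgs5 were called lower, and Pmp22 was not called. The mean signal over the endothelial list lay between 1.47 and 1.64 on collagen I and between 1.40 and 1.51 on fibronectin, and Pecam1 and Cdh5 were at most 0.80 on average. For fibroblast markers the ranges were 2.19 to 2.32 and 2.22 to 2.26, and for pericyte and smooth muscle markers 3.70 to 3.82 and 3.68 to 3.75. Schwann cell markers had 3.07 to 3.15 and 2.86 to 2.96, macrophage markers 1.82 to 1.89 and 1.65 to 1.68, and adipocyte markers, of which 4 of 6 were below the filter, 2.21 to 2.35 and 1.60 to 1.69. In bulk RNA, fewer cells of a type and less RNA per cell cannot be told apart, and the part of such markers in the changes above was not tested. As a measure of RNA quality, the log2 difference between 3′ and 5′ control probe sets was 0.33 to 0.46 on collagen I and 0.33 to 0.39 on fibronectin for Gapdh, and 0.63 to 0.72 and 0.57 to 0.65 for Actb.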

How the data were processed

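The deposited values are log2 probe set signals of an Affymetrix mouse array, 1 array per sample, made by the authors with Affymetrix Expression Console and RMA, per the submitters' processing notes, which give no version. RMA equalises signal distributions across arrays, so it would hide a shift common to most genes, and it compresses changes of dim probe sets. Sample medians lay between 2.30 and 2.39. Scan dates were not used here, and no batch was tested. Arrays give no molecule counts, and the 3 samples per coating limit the precision.

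Groups came from sample titles. Gene names came from the platform annotation, updated through RefSeq GRCm38.p6 (18032 of 18194 gene identifiers found). Exactly 1 gene was given for 34945 probe sets, several for 932 and none for 9211. A gene was its brightest probe set on average and was tested if that mean reached 2.34, the median of all values, which kept 10928 genes and left out 7265. Limma 3.58.1 in R 4.3.3 compared fibronectin with collagen I (lmFit and eBayes, two-sided, no covariates, 4 residual and 3.82 prior degrees of freedom). Simulated data for this comparison had 10928 genes, of which 200 were changed. Recovery was 32% at a 1.2-fold change and 98% at 1.5-fold, with 11 false calls among 176. In the data 40.1% of tested genes were called, which makes the adjustment less strict, so these recoveries do not carry over to the data. Named genes were all 10 laminin and linker genes, up to 4 genes of each list by smallest p among those past the threshold, and the markers needed to state a range. Itga7, Itgb1, Dag1, Sgce, Sgcb, Sntb2, Utrn, Sulf1, Chrna1, Myog, Des, the other collagen IV chains and the other laminin chains were named outside this rule, after their values were seen. The same holds for the other called myoblast markers and for Col3a1, Acta2, Rgs5 and Pmp22. The members and lists were chosen with earlier results of these data known. Of 218 list entries 202 had a measured gene. Alternatives were other filters, scalings, probe set rules, variance models and thresholds, the replicate number as a block, and leaving out each sample; leaving out samples in the fit over all probe sets was added after seeing the data. Figures used Python 3.11.15 and matplotlib 3.10.9.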

Additional observations from a re-analysis of the deposited data

How the results depend on the processing

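Nid2 was called higher under every alternative in which it was tested, at log2 changes between 0.61 and 0.82. A 75th percentile filter left Nid2 out of the test, and Hspg2 was the 1 gene then called higher. The count of laminin and linker genes called higher was 2 in place of 1 with samples centred or with array weights, which added Hspg2, and 2 with probe sets averaged, which added Lamc1. The count called lower was 0 in place of 1 without the brightness filter, with samples centred, at an adjusted p of 0.01 and at a change of at least 1.5-fold. It was 2 with the 75th percentile filter, with probe sets averaged and under a variance model with trend and robust options, which added Nid1 to Lama5, and 2 with all probe sets tested. Leaving out 1 sample gave counts of 1 higher in each case and of 0 to 1 lower.

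Over all tested genes, an adjusted p of 0.01 left 1173 higher and 1404 lower, and a change of at least 1.5-fold left 169 and 402. Deviations of samples with the same replicate number had correlations of 0.10, -0.01 and 0.08. With 3 samples per coating these values cannot exclude a shared mouse, culture or batch. With the replicate number as a block 1 laminin or linker gene was higher and 1 lower, and over all genes 2024 were higher and 2161 lower. The shifts of the 6 pairs kept their sign under every alternative run. Signals near the floor limit what can be said of Lama4 and of the dim probe sets of Lama5, Lamb1, Lamc1 and Agrn.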

Other observations

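Some genes listed as markers of other cell types were above the filter and were called. The largest falls on these lists were in adipocyte markers: Fabp4, a fatty acid carrier, went from 5.11 ± 0.16 on collagen I to 3.01 ± 0.17 on fibronectin (4.28-fold), and Pparg, a regulator of fat cell formation, from 4.61 ± 0.10 to 3.17 ± 0.15 (2.70-fold; SD, n = 3), while the other 4 measured adipocyte markers lay below the filter. With probe sets averaged 1 adipocyte marker was tested and called lower, at -1.43 on the log2 scale. This is the change of Pparg, so Fabp4 was then not tested. Rgs5, a regulator of G protein signalling used as a pericyte marker, went from 9.07 ± 0.07 on collagen I to 7.84 ± 0.32 on fibronectin (SD, n = 3). On the same list 5 of 10 markers lay below the filter, among them Pdgfrb, Kcnj8 and Abcc9. Cspg4 and Notch3 were above it and not called (limma adjusted p = 0.0789 and 0.3335). Acta2 rose by 0.21 (limma adjusted p = 0.0269), a call that ended with probe sets averaged. Tagln, an actin-binding protein of smooth muscle, rose by 0.87 on the log2 scale (limma adjusted p = 0.00222). Ngfr, a neurotrophin receptor listed for Schwann cells, fell from 4.64 ± 0.08 to 3.25 ± 0.37. Sox10, Erbb3 and Pmp22, also listed for Schwann cells, were above the filter and not called. With probe sets averaged 2 genes of the Schwann cell list were tested and 0 were lower, so Ngfr was then not called. Cd68, a lysosomal protein listed for macrophages, fell from 4.63 ± 0.18 to 3.36 ± 0.26. Of the other macrophage markers, Cd14 fell by 0.46 on the log2 scale (limma adjusted p = 0.000757). Csf1r was above the filter with a change of -0.03, and Ptprc and Adgre1 were at most 1.26 on average. These genes were named after their values were seen.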
